A study of Mus musculus with 6 samples.

Results

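The COMMD genes encode a family of 10 proteins named after the copper metabolism MURR1 domain that they share near the C-terminus. The family was taken up because an earlier analysis of these data had found Commd4 among the genes that were lower in cells with an shRNA against Samd14. The members were chosen by symbol, Commd1 to Commd10, and all 10 were found among the 24376 gene IDs of each table. The question was whether the other 9 members shared the change of Commd4. As the value of Commd4 chose the family, it is given below as a description. The other members and their partner genes are read against all tested genes. They too were chosen with earlier results of these data known, so they are no independent tests.

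RNA was measured in blood progenitors of C57BL/6 mouse fetal liver, isolated at E14.5. Cells of both groups were infected with a retrovirus straight after isolation and grown ex vivo for 3 days, and 200000 cells negative for CD71 and Ter119 were then lysed per library. The groups were 3 control libraries, whose virus carried a control shRNA, and 3 shSamd14 libraries, whose virus carried an shRNA against Samd14. An shRNA is a hairpin that the cell cuts into a small RNA, which lowers transcripts it pairs with. Both groups thus carry a retrovirus and a hairpin, the sources used here give neither the target of the control hairpin nor any hairpin sequence, and 1 hairpin stands for the loss of Samd14. Whether each library had its own animals or culture is not in the labels, so a p-value here covers the spread of these libraries alone, which may be technical.

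COMMD proteins bind each other through the COMM domain and form a ring. With CCDC22 and CCDC93 the ring makes up the CCC complex, which joins the Retriever trimer of VPS35L, VPS26C and VPS29 on endosomes. There the assembly works beside the actin-nucleating WASH complex to return integrins, lipoprotein receptors and copper transporters to the cell surface. COMMD1, the best known member, is also an inhibitor of NF-kB that acts with a cullin ubiquitin ligase, and it is needed for copper export from the liver.

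Depth and labels were checked first. The libraries held 20584169 to 26462797 estimated counts. Samd14 lay between 82.0 and 83.8 counts per 1000000 (CPM) in the control libraries and between 38.8 and 41.9 CPM in the shSamd14 libraries, which goes with the labels. The progenitor marker Kit had a mean of 570 ± 81.2 CPM for control and 454 ± 27.5 CPM for shSamd14, and Gata2 71.5 ± 7.88 and 85.1 ± 2.33 CPM (SD, n = 3 each). Both were without overlap between the groups, as were 20.7% of all tested genes. Neither was called by edgeR (edgeR-adjusted p = 0.0943 and 0.106), while DESeq2 called Kit. RNA of Tfrc, which encodes CD71, was also present, with a mean of 934 ± 57.3 CPM for control and 824 ± 48.0 CPM for shSamd14. By edgeR's quasi-likelihood test, 327 of 12670 genes with enough counts had an adjusted p under 0.05 and are called changed here. Of these, 160 (1.26% of those tested) were lower and 167 (1.32%) higher in shSamd14.

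In the annotated 3′ untranslated region (UTR), 3 members held 7-base words that an earlier analysis of these data had found often in genes that changed. These were CAAGTGT and AAGTGTA among genes that fell, and CTGATTA and TGATTAA among genes that rose. The stretches are shown because Commd4 is the only member with both CAAGTGT and AAGTGTA. The word is in capitals, the strand is that of the transcript, 5′ to 3′, T stands for U, and the build is GRCm38 (mm10).
Commd4 (chr9:57155039-57155062, minus strand): gaagaataaaCAAGTGTAcagcaa
Commd2 (chr3:57646487-57646513, minus strand): ttttttacttCAAGTGTgtaaagagga
Commd8 (chr5:72157035-72157061, minus strand): ctcctcgtaaCTGATTAcactgtaggg

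In Commd4 the words CAAGTGT and AAGTGTA overlap into the 8 bases CAAGTGTA. They start at base 188 of a UTR of 201 bases, directly after an AATAAA, the usual polyadenylation signal, with 6 annotated bases behind them. In Commd2 only the first word was found, at base 176 of 2330, and in Commd8 CTGATTA stood at base 2822 of 3298. None of the 4 words occurred in the longest annotated 3′ UTR of the other 7 members. The longest annotated 3′ UTR of Samd14 itself, 1354 bases, held CAAGTGT and none of the other words. CAAGTGT alone occurred in 14.85% of the searched genes. Searched on the transcript strand in the longest annotated 3′ UTR of 11844 tested genes, CAAGTGT or AAGTGTA occurred in 21.68% and CTGATTA or TGATTAA in 14.4%. CAAGTGTA occurred in 346 genes, or 2.92%. Of those 346 genes 36 (10.4%), Commd4 among them, were called lower in shSamd14, against 157 (1.33%) of all 11844 searched genes. Called lower were also 90 (3.5%) of the 2568 genes with CAAGTGT or AAGTGTA, and 67 (0.72%) of the 9276 with neither. The words were found in these libraries, so these shares are no independent evidence. The transcript ends are also uncertain. A second annotated Commd4 transcript, not listed by the authors, has a 3′ UTR of 162 bases with none of the 4 words. The Commd4 transcript that the authors listed is 858 bases long in GENCODE M21 and 824 in the authors' tables. That of Commd2 is 2992 and 4415 bases long, and that of Commd8 3895 and 3464.

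Commd4 (ENSMUSG00000032299, chromosome 9, 57155035 to 57158331, minus strand) was the member that fell. COMMD4 is one of the less studied subunits of the ring. It had 37.0, 34.2 and 38.9 CPM in the control libraries and 23.1, 23.4 and 22.3 CPM in the shSamd14 libraries. Every shSamd14 library was thus well below every control library, and the shSamd14 values lay closer together than the control values. The control mean was 36.7 ± 2.38 CPM and the shSamd14 mean 22.9 ± 0.565 CPM (SD over 3 libraries), which is 0.625 of control, a log2 fold change of -0.68 with a 95% interval from -0.84 to -0.52. By p-value Commd4 was the third of the 160 genes called lower, and this value chose the family. These values rest on 558 to 935 estimated counts per library. In bulk RNA, fewer cells that express a gene and less RNA per cell cannot be told apart.

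**Figure D1:**
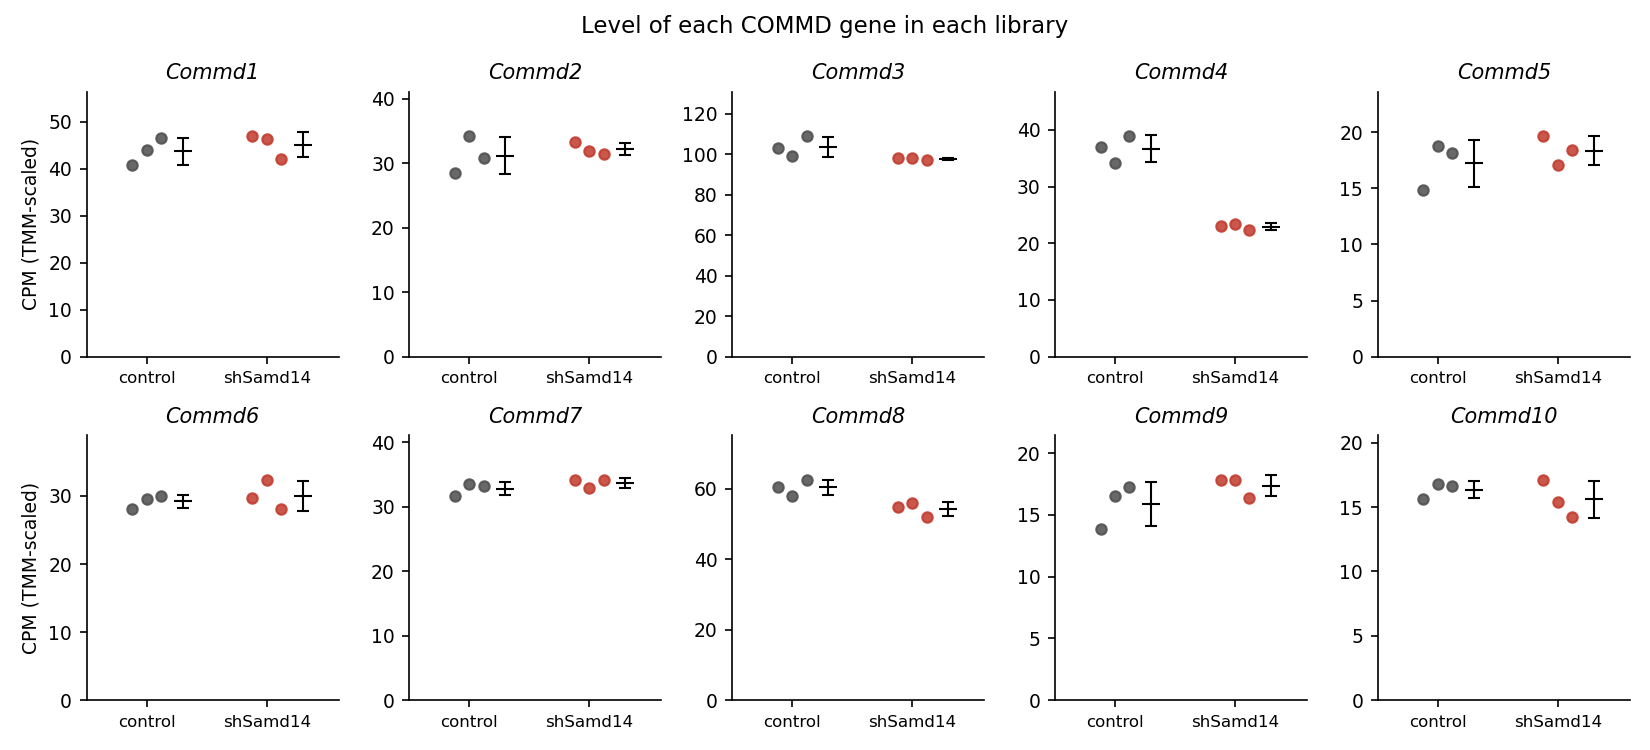
Level of each of the 10 COMMD genes in each library, in TMM-scaled counts per 1000000 (CPM) on axes that start at 0, with control libraries in grey and shSamd14 libraries in red. Points are libraries, and the bar beside them is the mean with the SD of 3 libraries. Commd4 drops from 34.2 to 38.9 CPM to 22.3 to 23.4 CPM, while the groups in the other panels overlap, apart from Commd3 and Commd8.

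None of the other 9 members was called by edgeR at an adjusted p of 0.05, where 2.58% of all tested genes were. DESeq2 and limma-voom called none of them either, and 1, Commd8, had an unadjusted p under 0.05 in edgeR. Their log2 fold changes lay between -0.15 for Commd8 and 0.12 for Commd9, with 6 above and 3 below 0 and a median of 0.04, against 0.006 over all tested genes. Their edgeR-adjusted p lay between 0.265 and 0.860. The median size of the change without its sign was 0.07 in these 9 members and 0.10 over all tested genes. No 95% interval of these 9 members reached the value of Commd4. That value chose the family and lies below the 2.5th percentile of all tested genes (-0.44). How many tested genes also miss it was not counted, so this is not read as particular to the members. The interval that came nearest, that of Commd8, ended at 0.818 of the control level. Over the 9 members the intervals ran from -0.29 to 0.34 on the log2 scale.

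**Figure D2:**
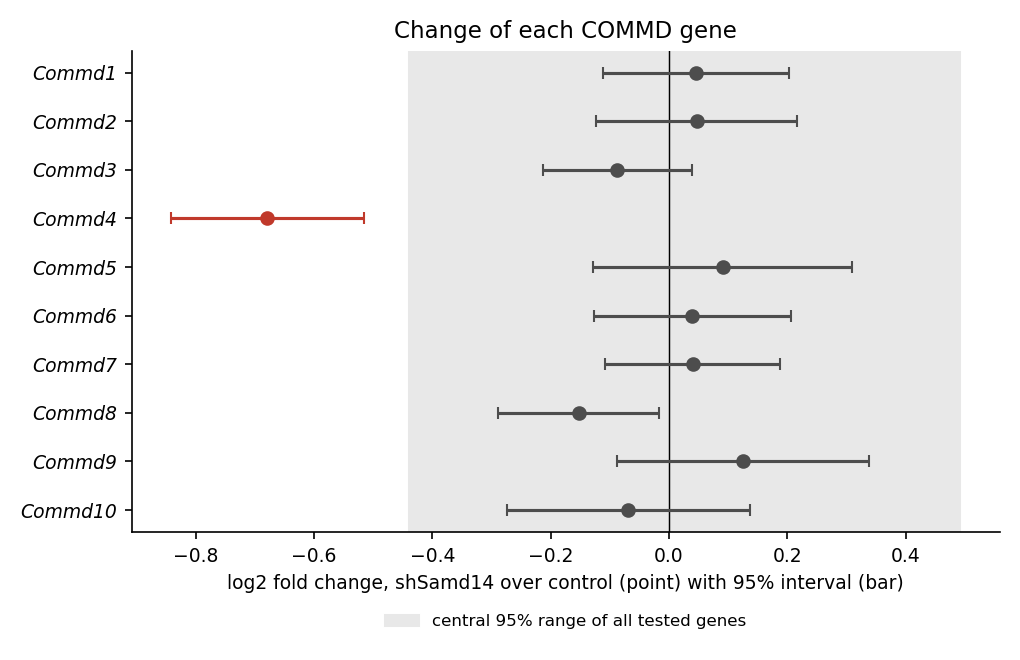
Log2 fold change of each COMMD gene, shSamd14 over control, on the horizontal axis (points) with its 95% interval (bars), and the grey band from the 2.5th to the 97.5th percentile of all 12670 tested genes (-0.44 to 0.49). Commd4 (red, -0.68), whose value chose the family, lies outside the band, and the intervals of the other 9 genes all lie inside it.

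Members known for their part in copper handling and NF-kB overlapped between the groups. Commd1 (chromosome 11, 22896136 to 22982382, minus strand), which guides copper transporters and promotes breakdown of the NF-kB subunit RelA, had 40.7, 43.9 and 46.5 CPM in control and 46.9, 46.4 and 42.1 CPM in shSamd14 libraries. The ranges overlapped, and the log2 fold change was 0.05 (SE 0.07, edgeR-adjusted p = 0.826). The gene model Gm28048 covers most of Commd1 on the same strand, had 1044 to 1262 estimated counts per library itself and a log2 fold change of 0.08. Zrsr1 lies within Commd1 on the opposite strand. How reads were divided between these genes is uncertain.

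Commd6 (chromosome 14, 101632981 to 101640686), the shortest protein of the family, had 28.1, 29.5 and 30.01 CPM in control and 29.6, 32.4 and 28.1 CPM in shSamd14 libraries. Commd7 (chromosome 2, 153616933 to 153632781), like COMMD1 described as a brake on NF-kB, had 31.6, 33.5 and 33.2 CPM against 34.2, 32.8 and 34.2 CPM. In both genes the groups overlapped. The log2 fold changes were 0.04 (SE 0.08) and 0.04 (SE 0.07), and the edgeR-adjusted p was 0.860 and 0.835.

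Commd3 and Commd8, whose proteins are known as a pair that brings a receptor kinase to chemokine receptors, were the members besides Commd4 whose groups did not overlap. Commd3 (chromosome 2, 18672384 to 18676231, plus strand) had 103, 99.1 and 109 CPM in control and 98.1, 98.1 and 97.0 CPM in shSamd14 libraries. All 3 shSamd14 values were just under the lowest control value, and the means stood at 0.941 of control (log2 fold change -0.09, SE 0.06, edgeR-adjusted p = 0.543). Commd8 (chromosome 5, 72156575 to 72168189, minus strand) had 60.3, 58.0 and 62.5 CPM in control and 54.9, 55.9 and 52.0 CPM in shSamd14 libraries. Its shSamd14 libraries were again the lower ones, at 0.900 of control (log2 fold change -0.15, SE 0.06). In edgeR its p was 0.0308 before adjustment and 0.265 after it. Groups that did not overlap were common. They were found in 20.7% of all tested genes, in 10.2% with shSamd14 lower and in 10.5% with shSamd14 higher, and 15% had an unadjusted p under 0.05. The 2 of 9 members apart from Commd4 are close to the share in either direction.

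The 4 remaining members, Commd2, Commd5, Commd9 and Commd10, overlapped between the groups. Commd2 (chromosome 3, 57644349 to 57651715) ran from 28.5 to 34.2 CPM in control and from 31.5 to 33.3 CPM in shSamd14 libraries, and its 3′ UTR is the one that holds CAAGTGT. Commd5 (chromosome 15, 76899910 to 76901305), first described as a calcium-regulated gene of hypertensive rats, ran from 14.8 to 18.7 and from 17.1 to 19.6 CPM. Commd9 (chromosome 2, 101886247 to 101901646), linked to the recycling of Notch receptors, ran from 13.9 to 17.3 and from 16.4 to 17.8 CPM. Commd10 (chromosome 18, 46958816 to 47234284), a further member described as a brake on NF-kB, ran from 15.6 to 16.8 and from 14.2 to 17.1 CPM. The log2 fold changes of these 4 genes were 0.05, 0.09, 0.12 and -0.07, and their edgeR-adjusted p lay between 0.613 and 0.835. At 287 to 850.8 estimated counts per library their standard errors, 0.08 to 0.10, were near the median over all tested genes (0.09).

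A single control library stood lower in most of the family. Control replicate 1, the library with the fewest counts, held the lowest control value of 7 of the 10 members, all but Commd3, Commd4 and Commd8. The share of all tested genes with their lowest control value in this library was not counted. The pattern is therefore not read as particular to the family. It also held the lowest value of all 6 libraries for Commd1, Commd2, Commd5, Commd7 and Commd9. For the other 5 members the lowest of all 6 was shSamd14 replicate 3. Without control replicate 1 the log2 fold changes of Commd1, Commd2 and Commd5 turned to -0.008, -0.02 and -0.009, and that of Commd6 turned to -0.02 without shSamd14 replicate 2. None of these values passed the test with or without the library, so no direction is read from them.

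Levels can be compared between genes only per transcript length, as transcripts per 1000000 (TPM). In the control libraries the order of the mean TPM was Commd3 (193.9 ± 10.5), Commd1 (132 ± 7.64), Commd4 (78.6 ± 5.83), Commd6 (49.8 ± 0.835), Commd7 (32.0 ± 0.520), Commd8 (28.9 ± 1.40), Commd5 (28.7 ± 2.68), Commd9 (22.9 ± 1.93), Commd10 (17.8 ± 0.177) and Commd2 (11.7 ± 0.811; SD, n = 3 each). Neighbours in this order did not overlap in the control libraries, except Commd8 and Commd5. This order rests on the transcript lengths that the authors used. That of Commd2 was 4415 bases, against 2992 in GENCODE M21, so its last place is uncertain. The level of Commd1 also depends on how reads were divided with Gm28048. Commd3 was higher than 93.87% of tested genes by its median TPM over all 6 libraries, Commd4 than 79.94% and Commd2 than 41.75%. The genes of the ring's subunits thus differed widely in RNA level.

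In the shSamd14 libraries Commd4 moved from the third to the fourth place. It stood at 49.5 ± 1.10 TPM there, beside Commd6 at 52.3 ± 5.51 TPM, and the libraries of these 2 genes overlapped (48.4 to 50.6 and 48.5 to 58.6 TPM). Commd4 made up 13.8, 12.5 and 13.3% of the summed TPM of the family in the control libraries and 8.62, 8.79 and 8.69% in the shSamd14 libraries. The groups did not overlap in this share, which is taken within a library. As the lower Commd4 chose the family, the share is a description and no separate support. The summed TPM of the other 9 members was 518 ± 15.9 in control and 519 ± 6.08 in shSamd14 libraries, which differ by less than either SD. Its largest parts, Commd3 and Commd1, moved in opposite directions (means of 193.9 to 184 and 132 to 137 TPM). The sum therefore says little about each member.

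**Figure D3:**
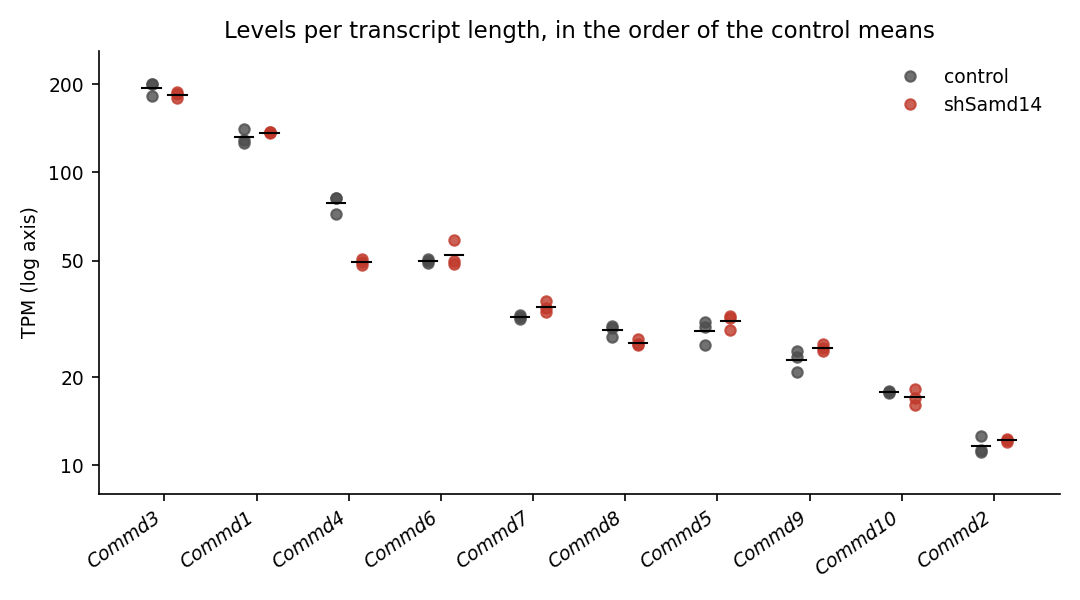
Level of each COMMD gene in TPM (log axis), ordered by the control mean, with 1 point per library, control in grey, shSamd14 in red, and a short line at each group mean. Commd4 falls from the third place (78.6 TPM) to the level of Commd6 (49.5 and 52.3 TPM), and the order of Commd3, Commd1, Commd10 and Commd2 is the same in both groups.

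The tables also give a gene length that is weighted by the share of each isoform, a readout that played no part in choosing the family. Of the members, 5 had a constant value because 1 transcript was listed, Commd4 with 824 bases among them, and Commd3 was constant at 935 bases with 2 transcripts. In Commd7, with 2 transcripts, the value was 1728.6, 1711.2 and 1751.6 bases in control and 1646.8, 1680.6 and 1648.0 bases in shSamd14 libraries. The shSamd14 libraries were all shorter, by 1730.5 ± 20.3 against 1658.4 ± 19.2 bases (SD, n = 3 each). An exact permutation test of 3 against 3 libraries cannot go below p = 0.10. Among 6703 tested genes whose length varied between libraries, 11.4% had groups that did not overlap, 5.55% with shSamd14 shorter. TPM divides by this length. Commd7 was 32.0, 32.5 and 31.5 TPM in control and 34.4, 33.4 and 36.4 TPM in shSamd14 libraries, without overlap, while its CPM overlapped. Commd1, Commd5 and Commd6 varied in length with overlap between the groups.

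Genes beside the members on the chromosome were looked at next. Of the 20 flanking protein-coding genes, 1 on each side of each member, 13 had enough counts to test. None of them was called by edgeR, with 2 at an unadjusted p under 0.05. DESeq2 called 1, and limma-voom 0. Neil1, a DNA repair glycosylase gene 6729 bases from Commd4 on the same strand, had 2.40 CPM in control libraries and 2.58 CPM in shSamd14 on average, with a log2 fold change of 0.11 (SE 0.17). Trcg1, on the other side of Commd4, had 0 to 4 estimated counts and was not tested. Bmi1, a Polycomb gene that starts 786 bases behind Commd3 on the same strand, had a log2 fold change of -0.25 (SE 0.07, edgeR-adjusted p = 0.0652) and was the gene that DESeq2 called (adjusted p = 0.0424).

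The partners of the COMMD proteins were read from 8 lists with 61 genes, of which 60 were tested. Of these, 1 rose and 1 fell, 3.33% against 2.58% of all tested genes, and their median log2 fold change was 0.003. An unadjusted p under 0.05 in edgeR was found for 12 of the 60 (20%), against 15% of all tested genes. The lists were short, and a count near the background is not a result about them.

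None of the 4 genes of the CCC list passed in edgeR, in DESeq2 or in limma-voom, with 1 at an unadjusted p under 0.05. Ccdc22, the coiled-coil subunit that clamps the COMMD ring, had 34.8 ± 3.06 CPM in control libraries and 39.3 ± 1.48 CPM in shSamd14 (log2 fold change 0.18, SE 0.08, edgeR-adjusted p = 0.294). Ccdc93, the other coiled-coil subunit, and Vps35l, the link to Retriever, had log2 fold changes of -0.05 and 0.005, and Dennd10 0.06. Of the 3 Retriever genes none passed in any of these tools either, again with 1 at an unadjusted p under 0.05. Vps26c had a log2 fold change of 0.17 (SE 0.07, edgeR-adjusted p = 0.294), and its groups did not overlap. The median of the CCC list was 0.03 and that of the Retriever list 0.005, with Vps35l in both.

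Retromer, the older relative of Retriever that shares VPS29, held the member that rose. Vps26a, its arrestin-like subunit, had 77.4 ± 1.15 CPM in control libraries and rose 1.25-fold to 97.1 ± 2.75 CPM in shSamd14 (SD, n = 3), with a log2 fold change of 0.33 (SE 0.06) and an edgeR-adjusted p of 0.00791. Vps35, Vps26b and Vps29 had log2 fold changes of 0.002, 0.10 and -0.06 and did not pass. The 3′ UTR of Vps26a held TGATTAA, which occurred in 10.18% of the searched genes. This word was found among genes that rose in these same libraries, so its presence is no independent evidence. Without shSamd14 replicate 2 the log2 fold change of Vps26a was 0.306 with an edgeR-adjusted p of 0.0548. The gene passed in the other 5 fits with 1 library left out.

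No WASH complex gene passed among the 5 tested, in edgeR, DESeq2 or limma-voom, with 0 at an unadjusted p under 0.05, and the list's median was 0.03. Washc4, which encodes the SWIP subunit, had the smallest p and 135 ± 12.2 against 121 ± 13.3 CPM (edgeR-adjusted p = 0.448). Of 8 tested adaptors and cargo of endosomal recycling none passed in these tools, with 2 at an unadjusted p under 0.05. Itgb1, the integrin beta1 chain and a cargo of this route, had 338 ± 17.1 CPM in control libraries and 295 ± 13.1 CPM in shSamd14, with groups that did not overlap (log2 fold change -0.20, SE 0.06, edgeR-adjusted p = 0.136). Snx17, the adaptor that binds the cargo tails, had a log2 fold change of 0.09, and the list's median was -0.02. Snx31 was below the count filter.

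None of the 12 copper genes passed in edgeR, DESeq2 or limma-voom, with 3 at an unadjusted p under 0.05 and a median of -0.06. Atp7a, the copper exporter that the CCC complex returns to the cell surface, had 11.4 ± 1.39 CPM in control libraries and 8.92 ± 0.877 CPM in shSamd14 (log2 fold change -0.35, SE 0.12, edgeR-adjusted p = 0.176). The metallothionein genes Mt1 and Mt2 had log2 fold changes of -0.08 and -0.27, with shSamd14 SDs of 88.6 and 131.7 CPM around means of 525 and 643 CPM. Slc31a2, a copper transporter of internal membranes, had 9.37, 8.84 and 13.4 CPM in control and 13.1, 13.1 and 17.97 CPM in shSamd14 libraries, with overlap (log2 fold change 0.48, SE 0.18, edgeR-adjusted p = 0.257). Without control replicate 3, the highest control library, it passed (log2 fold change 0.69, edgeR-adjusted p = 0.0357).

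None of the 13 NF-kB genes passed in these tools, with 0 at an unadjusted p under 0.05 and a median of 0.003. Rela, whose protein COMMD1 helps to break down, had 55.2 ± 1.86 and 58.0 ± 2.58 CPM (log2 fold change 0.07), and Nfkbia, which encodes an inhibitor that NF-kB induces itself, 22.9 ± 2.12 and 21.7 ± 1.34 CPM (log2 fold change -0.08). Chuk, which encodes the kinase IKK-alpha, had the smallest p of this list (log2 fold change -0.12, edgeR-adjusted p = 0.400).

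Among 13 cullin ligase genes, Cul7, the scaffold of a ubiquitin ligase with FBXW8, fell from 40.5 ± 1.14 to 30.9 ± 1.33 CPM (SD, n = 3 each), 0.763 of control, with a log2 fold change of -0.39 (SE 0.07) and an edgeR-adjusted p of 0.00798. Its annotated 3′ UTR of 73 bases held none of the 4 words. Without shSamd14 replicate 2 its log2 fold change was -0.375 with an edgeR-adjusted p of 0.0572, and the other 5 fits with 1 library left out passed. Cul7 also missed the threshold in limma on log2(TPM + 1) and log2(TPM + 0.1). The other 12 genes of the list did not pass in edgeR, and DESeq2 also called Eloc. Cul2, the cullin of the ligase that COMMD1 joins, had a log2 fold change of 0.10, and the elongin C gene Eloc -0.28 (SE 0.08, edgeR-adjusted p = 0.0861). The median of the list was -0.05.

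**Figure D4:**
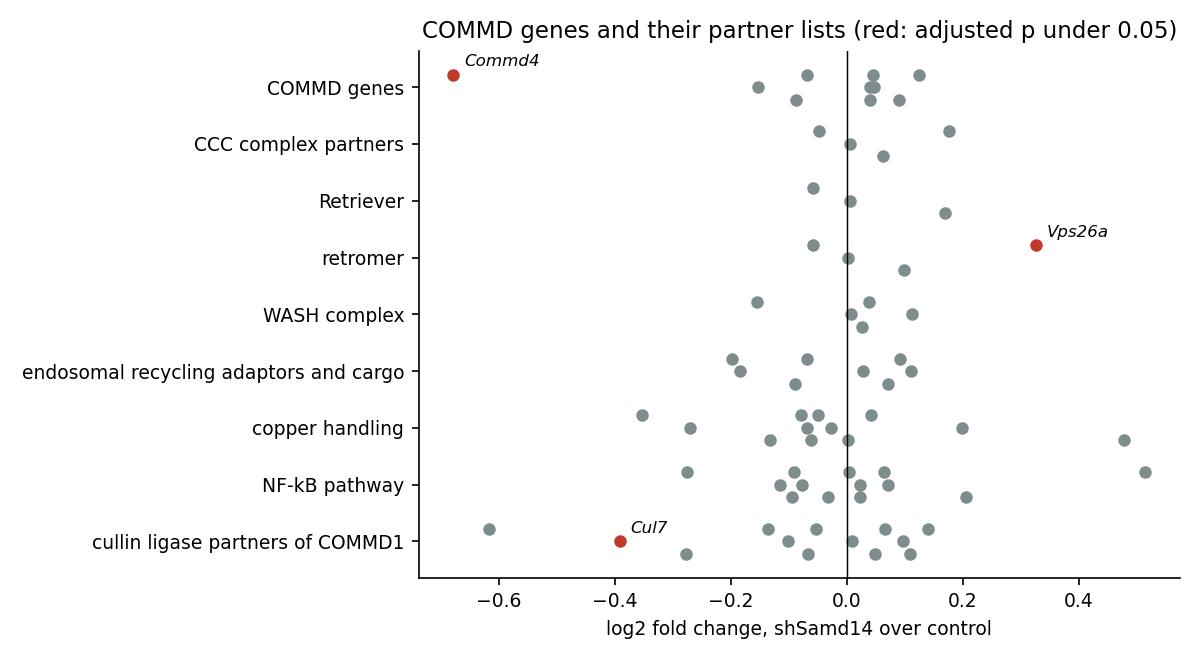
Log2 fold change (horizontal axis) of each tested gene of the COMMD family and of 8 partner lists, 1 point per gene, with genes past an adjusted p of 0.05 in red and the vertical position within a list only spreading the points. Commd4 (-0.68), Vps26a (0.33) and Cul7 (-0.39) are the genes in red.

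Markers of other cells were read beside these values. The 8 megakaryocyte markers summed to 269 to 311 CPM in control and 357 to 369 CPM in shSamd14 libraries, and all 8 had a positive log2 fold change. By edgeR 3 of the 8 were called higher, against 1.32% of all tested genes, while DESeq2 called 4 and limma-voom 3. In 7 of the 8 the groups did not overlap, against 20.7% of all tested genes. The part of these markers in the lower Commd4 was not tested. The 6 progenitor markers summed to 1142 to 1331 CPM in control and 1137 to 1162 CPM in shSamd14 libraries, with 3 of 6 log2 fold changes positive. In that list edgeR and limma-voom called no gene and DESeq2 called Kit, while Kit and Gata2 had an unadjusted p under 0.05 in edgeR (log2 fold changes -0.33 and 0.25). Their part in the values of the COMMD genes was not tested either. The 6 genes of maturing erythroid cells summed to 1746 to 1895 CPM and 1724 to 1806 CPM, the 6 neutrophil genes to 3017 to 4874 CPM and 3329 to 4949 CPM, and the 6 mast cell genes to 230 to 275 CPM and 235 to 311 CPM. Of these 3 lists edgeR, DESeq2 and limma-voom called no gene, with 2 erythroid genes at an unadjusted p under 0.05. Macrophage, hepatocyte and endothelial markers summed to at most 50.03, 47.6 and 21.5 CPM in any library, with C1qa and Serpina1a at 0 in all 6.

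The value of Commd4 varied little with the way of fitting. Over 17 alternatives its log2 fold change lay between -0.73 and -0.64, and it stayed past the threshold in each, also with each library left out in turn. The alternative at an adjusted p under 0.01 is the reported fit with a stricter threshold. All of them reuse the libraries whose value chose Commd4, so they describe its dependence on the fit and are no independent evidence. The other 9 members were not called in any of them, and their log2 fold changes lay between -0.18 and 0.18.

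**Figure D5:**
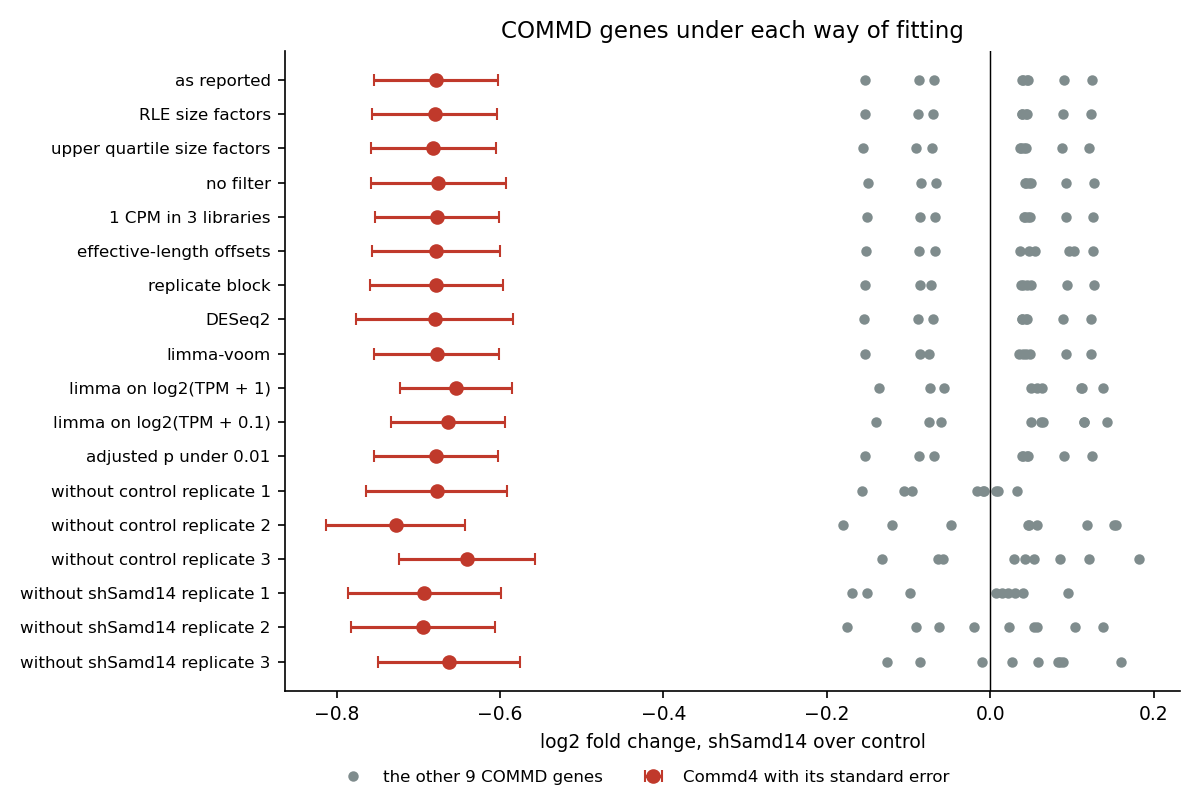
Log2 fold change, shSamd14 over control (horizontal axis), of Commd4 (red, bars are standard errors) and of the other 9 COMMD genes (grey) as reported and under 17 alternatives (vertical axis). Commd4 stays between -0.73 and -0.64 and the other genes between -0.18 and 0.18.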

How the data were processed

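The 6 RSEM gene tables, 1 per library, hold expected counts, TPM, FPKM and gene lengths, per the file headers. Per the submitters' processing notes the tools were CASAVA 1.8.2, Bowtie 1.0.1 and RSEM 1.2.15 with the mm10 build; the sources used here do not give their roles, the annotation release or the use of strand. The authors deposited expected counts that share reads between similar genes, and TPM and FPKM scaled per 1000000. FPKM served only as a check of TPM.

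Symbols came from GENCODE M21 (GRCm38), which matched 23580 of 24376 IDs; Dennd10 is listed there as Fam45a. Expected counts were rounded and tested in edgeR 4.0.16 (R 4.3.3): filterByExpr (minimum count 10, total 15), TMM factors (0.986 to 1.021), robust quasi-likelihood fit, two-sided, Benjamini-Hochberg over 12670 genes. The SE is the log2 fold change divided by the root of F, and 95% intervals use the fit's degrees of freedom. The code was tested on simulated data. Within groups, the chi-square between libraries was 5.73 to 12.16 per gene, so none was a duplicate. Alternatives included DESeq2 1.42.0 and limma 3.58.1. UTR words were searched in protein-coding transcripts with at least 50 bases of 3′ UTR. The members, lists and words were chosen with earlier results of these data known. The text names all 10 members, Samd14, and from each partner list the genes past the threshold or else the one with the smallest p; further partners, flanking genes, Kit, Gata2 and Tfrc were named after their values were seen. With 3 counts equal to 0.113 to 0.146 CPM, no member lay near this floor. Precision still differed, with a standard error of 0.06 for Commd3 and 0.10 for Commd5, which had fewer counts.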

Additional observations from a re-analysis of the deposited data

How the results depend on the processing

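Commd4 was called under all 17 alternatives, which reuse the libraries that chose it, and the number of COMMD genes called was 1 in each. The 153 values of the other 9 members changed sign in 4 cases, each a fit with 1 library left out. Over those fits the log2 fold change ran from -0.0080 to 0.089 in Commd1, -0.017 to 0.119 in Commd2 and -0.0089 to 0.154 in Commd5, each lowest without control replicate 1, and from -0.020 (without shSamd14 replicate 2) to 0.083 in Commd6. The count over all genes, 327 (167 higher, 160 lower), was 682 (322 and 360) with the replicate block, 168 (106 and 62) and 170 (106 and 64) in limma on log2(TPM + 1) and log2(TPM + 0.1), and 104 (61 and 43) at an adjusted p under 0.01. Without a filter 261 genes were lower. With 1 library left out it ranged from 128 without shSamd14 replicate 2 to 283 without control replicate 3 (63 to 133 higher, 65 to 163 lower). Partner genes called were 2, but 4 with the replicate block (Slc31a2, adjusted p = 0.00374, and Eloc added), 1 with either TPM setting, and 0 to 3 with 1 library left out. Same-numbered libraries deviated from their group means with correlations of -0.072, 0.153 and 0.272, and of the control libraries only replicate 3 correlated best with the shSamd14 library of its own number. Replicate 3 also held the highest neutrophil sum of each group, 4874 CPM in control and 4949 CPM in shSamd14. As 1 of the 3 correlations was under 0.1 and the labels name no shared batch, the numbers were not used as pairs. Whether some numbers share a batch was not tested. The Commd4 share of the family was 9.48 and 6.25% (control and shSamd14) of estimated counts in place of TPM, and 19.5 and 12.9% without Commd3 in the sum, by construction of these shares. With 1 library left out it ranged from 12.85 to 13.53% in control and from 8.65 to 8.74% in shSamd14. Differences in the other members smaller than their intervals were not detectable with 3 libraries a group.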
